A study of Homo sapiens with 6 samples.

Results

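The genes described here are 10 regulators and targets of the integrated stress response that centre on the transcription factors ATF4 and CHOP. CHOP is the product of the gene DDIT3. They were listed with earlier results of these data known, and their probes were then taken by name: every non-control probe whose gene name in the scanner output was ATF4, ATF3, DDIT3, TRIB3, CEBPB, ATF5, PPP1R15A, CHAC1, DDIT4 or SESN2. All 10 were found among 29123 gene names, with 14 of the 41000 probes on the array. Of these probes, 12 were bright enough to be tested in SKOV3 cells and 14 were covered in A2780s cells.

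The study asked how Hic-5, a focal adhesion protein encoded by TGFB1I1, alters gene expression in ovarian cancer cells. Both lines, SKOV3 and A2780s, are established human ovarian adenocarcinoma lines. Each of the 6 Agilent whole-genome arrays held RNA of a modified clone in one dye, Cy3 or Cy5, and RNA of the matching Ctrl in the other. In SKOV3, the clones sh-S1 and sh-S2 had each received a different shRNA against Hic-5 in the lentiviral vector pLKO.1-puro, and the Ctrl was a clone that carried the same vector with a scrambled sequence. The SKOV3 clones, the Ctrl included, were selected with puromycin. In A2780s, the pCMV-Hic-5 clone carried tagged Hic-5 driven by a CMV promoter, its Ctrl had received the vector without it, and both were selected with neomycin. Each shRNA, the Hic-5 vector and each Ctrl was represented by 1 clone, each modified clone was hybridised on 2 dye-swapped arrays, and the SKOV3 Ctrl was on 4. The 2 arrays of a dye swap hold the same RNAs and were averaged to 1 replicate. This gives 2 clones set against 1 Ctrl RNA in SKOV3, and 1 clone with no test in A2780s. Nothing in the labels says that the RNAs came from repeated cultures, so a p-value here covers the spread between these 2 clones, which may be partly technical. With 2 clones, limma takes most of its estimate of that spread from the other probes, so that its standard error (SE) can be well below or above what the SD of a gene alone would give.

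In the integrated stress response, kinases that sense a stressed endoplasmic reticulum, a shortage of amino acids, viral RNA or a lack of haem phosphorylate the translation factor eIF2. General translation then slows while the mRNA of ATF4 is translated more, and ATF4 switches on CHOP, other factors and genes of amino acid metabolism. Much of the control of ATF4 is thus exerted on its translation, which an array of mRNA does not measure.

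Values are log2 ratios of clone over Ctrl after background correction and loess normalization, so that a value of 1 is a doubling. The gene that encodes Hic-5 was looked at first. Its single probe gave -0.16 and 0.12 in the arrays of sh-S1, with the clone in Cy5 and in Cy3, and -0.12 and 0.28 in those of sh-S2. No fall was detected (mean 0.03 ± 0.07, SD, n = 2 clones; adjusted p = 0.855, limma), and each direction given for these RNAs rests on their label. Per the labels, lower Hic-5 in the clones had been checked by RT-PCR and Western blot, which are not analysed here. In pCMV-Hic-5 it was higher on both arrays, at 4.05 and 2.60. The labelled cell type was checked on markers: KRT8, KRT18, PAX8 and ERBB2 were above background in all 5 RNAs on all arrays, but were called lower in the sh RNAs, at log2 ratios between -2.14 and -3.58. CDH1, which encodes E-cadherin, was above background on neither A2780s array. On the SKOV3 arrays the median signal above background was 9.52 to 25.5 in Cy5 against 373 to 530.5 in Cy3, so that one RNA on every SKOV3 array was read in a dim channel. Both channels were bright in A2780s, with medians of 325 to 568. The A2780s arrays lay on another slide, and the slide cannot be told apart from the line.

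All 10 genes were higher in the A2780s pCMV-Hic-5 clone than in its Ctrl. By its brightest probe, each gene passed the rule used here, a mean of at least 1.5-fold with the same sign on both arrays. Of all 30530 probes covered, 3.26% passed it in this direction, and of all genes by their brightest probe 3.43%. The mean log2 ratios of the 10 genes ran from 0.76 in SESN2 to 3.20 in ATF3 with a median of 1.87, where the median of all probes was -0.01. Downward the rule was passed by 1.32% of probes and by none of the 10 genes. At 2-fold, which 0.635% of probes reached, 8 of the 10 passed. Of the 14 probes, 13 passed at 1.5-fold, and the remaining probe, 1 of a pair for CEBPB, was also higher on both arrays. With 1 clone there is no replicate behind these values, and a change in RNA per cell cannot be told apart from a change in the share of cells that hold it.

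**Figure D1:**
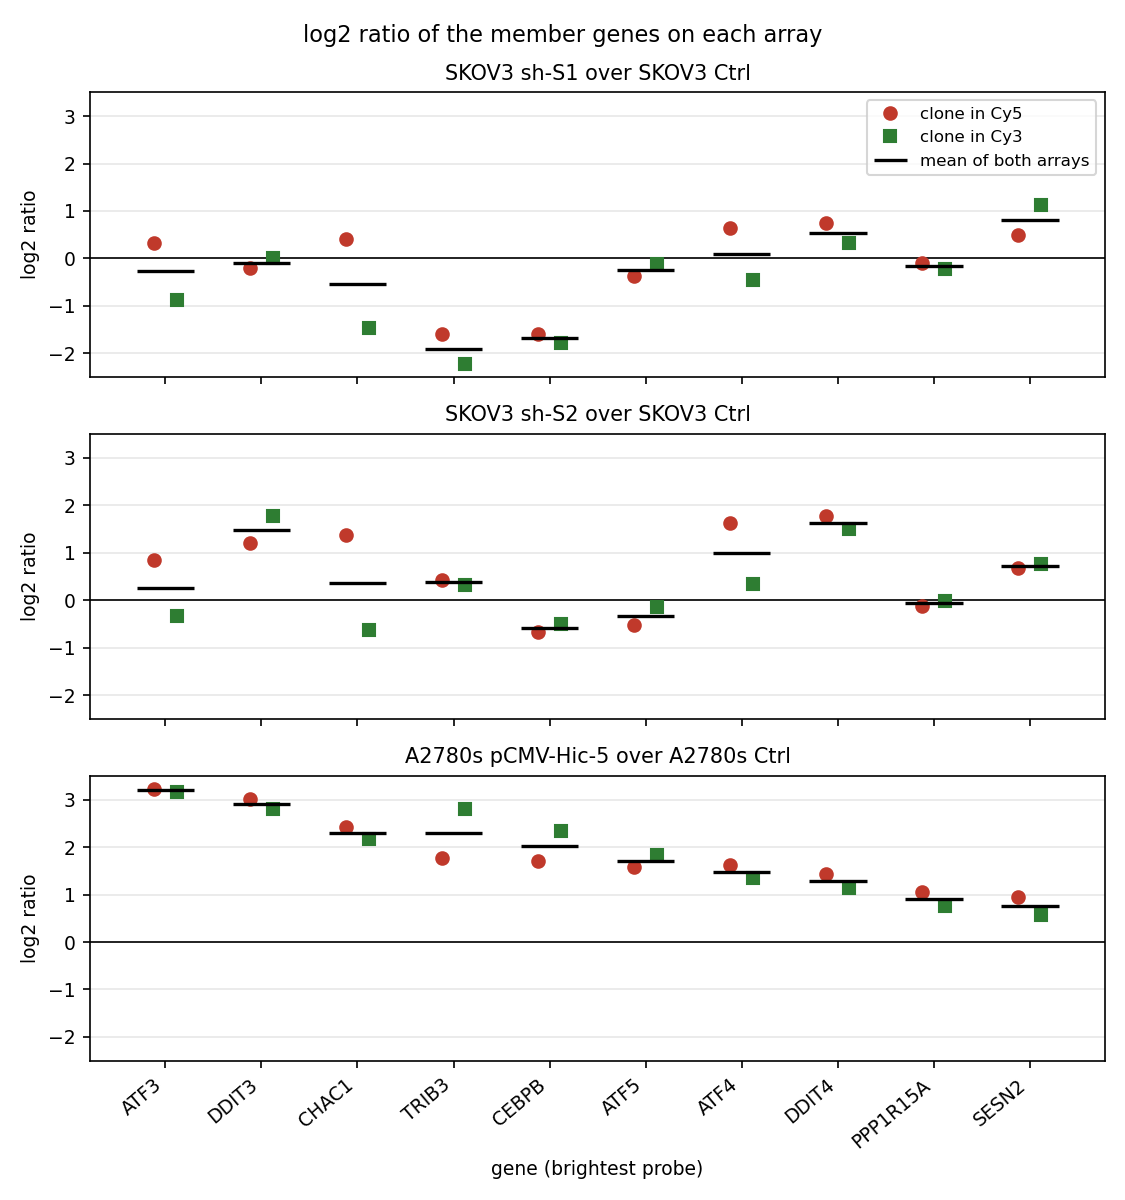
Log2 ratio of clone over Ctrl (vertical axis) for the brightest probe of each of the 10 genes, 1 panel a clone, with the array that holds the clone in Cy5 as a circle, the array that holds it in Cy3 as a square and their mean as a line. All points of pCMV-Hic-5 lie above 0, between 0.57 and 3.24, while those of the SKOV3 clones lie on both sides of 0.

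In SKOV3, in the RNAs with sh labels, the 10 genes did not move together. With limma, where a call needed 2-fold and an adjusted p no higher than 0.05, DDIT4 was called higher and CEBPB lower. Among the 24956 probes tested, 2.98% were called higher and 4.16% lower. SESN2 passed the p-value but not the fold. By their brightest probes, these 3 genes are those at an adjusted p of at most 0.05 with no fold asked, a level that 31.8% of all probes tested reached. The other probe of ATF4 also reached it. The median over the 10 genes was -0.04, beside 0.00 over all probes tested.

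**Figure D2:**
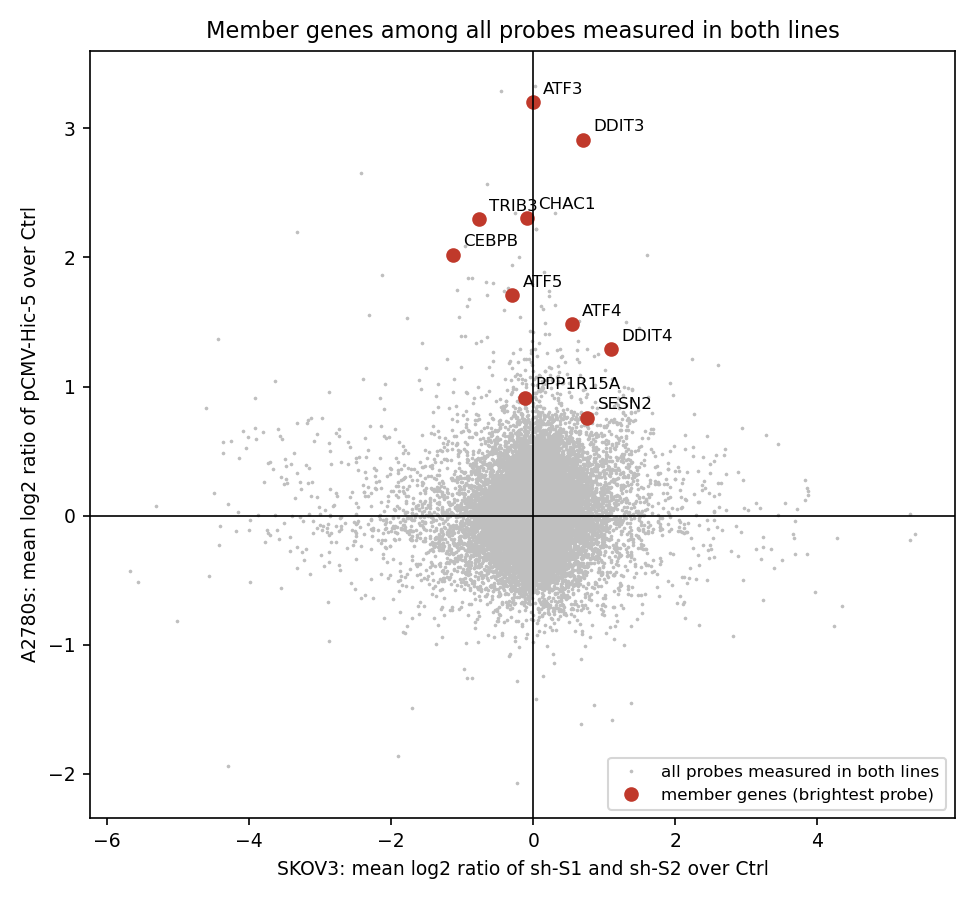
Mean log2 ratio in SKOV3 (horizontal axis, sh-S1 and sh-S2 over Ctrl) against mean log2 ratio in A2780s (vertical axis, pCMV-Hic-5 over Ctrl), 1 point a probe, for the 23729 probes measured in both lines in grey and the brightest probe of each of the 10 genes in red. The 10 genes all lie above 0 on the vertical axis, from 0.76 to 3.20, and spread from -1.13 to 1.09 on the horizontal axis.

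The promoters of these genes were searched for the letters of 4 elements known from stress signaling, because the genes were all higher in the A2780s clone. The windows were those of RefSeq (GRCh38.p14), from 250 bases before to 50 bases after each annotated start, with 18 windows for the 10 genes and 35116 in all, read on both strands. TGATGNAA, the core of the C/EBP-ATF response element that ATF4 binds with its partners, was in 2 of the 18 windows, 1 of CHAC1 and 1 of ATF3, and in 3.62% of all windows. TGACGTCA, the cyclic AMP response element, was in the window of PPP1R15A and in 1.85% of all windows. The ER stress response element in its full form was in none of the 18 and in 0.0769% of all, and the UPR element, TGACGTGG, was in none of the 18 and in 0.729% of all. A match describes letters and not a bound site, and its absence covers these windows alone. The 3 stretches that hold a match are shown 5′ to 3′ on the strand of the gene, with the matched letters in capitals. They are 100 bases each, from chr15:40953221-40953320 (CHAC1), chr1:212565170-212565269 (ATF3) and chr19:48872317-48872416 (PPP1R15A), all on the plus strand of GRCh38.p14.
CHAC1: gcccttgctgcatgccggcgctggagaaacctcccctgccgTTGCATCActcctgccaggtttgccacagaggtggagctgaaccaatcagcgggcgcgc
ATF3: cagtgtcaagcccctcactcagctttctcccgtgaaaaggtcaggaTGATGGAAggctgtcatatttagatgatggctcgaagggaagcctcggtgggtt
PPP1R15A: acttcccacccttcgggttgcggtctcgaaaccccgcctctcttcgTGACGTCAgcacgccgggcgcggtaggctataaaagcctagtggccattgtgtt
The match begins 209 bases before the start in CHAC1, where it is read on the opposite strand, 191 before in ATF3 and 58 before in PPP1R15A. ATF3 has 2 windows, each with its own start, and only 1 of them holds a match. The 3 genes had A2780s log2 ratios of 2.31, 3.20 and 0.91, and the 7 genes without any match also passed the fold rule there.

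ATF4 is the factor at the head of the response. Its brightest probe (A_23_P120933, hg19 chr22:39918577-39918636) gave 1.61 with pCMV-Hic-5 in Cy5 and 1.35 with it in Cy3, a mean of 1.48 or 2.80-fold. Its other probe (A_23_P120941, hg19 chr22:39917875-39917934) gave 1.69 and 1.33, so both probes read nearly the same ratio. In SKOV3 the brightest probe stood at 0.63 and -0.45 in sh-S1 and at 1.63 and 0.34 in sh-S2, the first value of each pair being the array with the clone in Cy5. Averaged over the clones it was 0.54 ± 0.63 (SD, n = 2 clones), which did not pass (adjusted p = 0.0833, limma). Both clones read higher in Cy5 than in Cy3 on this probe, while the other probe did the reverse, at -0.20 and 1.12 in sh-S1 and -0.05 and 1.68 in sh-S2. The mean of that probe, 0.64 ± 0.25 (SD, n = 2 clones), reached limma's threshold (adjusted p = 0.00632) but fell short of 2-fold. The sign of a single array in SKOV3 thus changed with the dye and with the probe, and the dye-swapped mean was above 0 in both clones by both probes.

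ATF5 and CEBPB encode further bZIP factors. ATF5 is translated under the same kind of control as ATF4, and C/EBPβ pairs with CHOP and ATF4. ATF5 (A_23_P119337, hg19 chr19:50436754-50436813) stood at 1.59 and 1.83 in pCMV-Hic-5, a mean of 1.71. In SKOV3 it was below 0 on all 4 arrays, at -0.38 and -0.13 in sh-S1 and at -0.53 and -0.14 in sh-S2. The mean was -0.29 ± 0.06 (SD, n = 2 clones; adjusted p = 0.0561, limma), short of both thresholds. Only 1 of the 2 arrays of each SKOV3 clone read it above background in the clone.

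CEBPB was called lower in SKOV3 and was higher in A2780s. It was, with ATF5 and PPP1R15A, 1 of 3 genes that were lower on all 4 SKOV3 arrays and higher on both A2780s arrays, as were 6.05% of the probes measured in both lines. Its brightest probe (A_23_P411296, hg19 chr20:48808989-48809048) lies on 10 spots of each array. The log2 ratio was -1.60 and -1.77 in sh-S1 and -0.66 and -0.50 in sh-S2, so that sh-S1 was the lower clone in both dye orientations. The mean, -1.13 ± 0.78 (SD, n = 2 clones), had an SE of 0.23 and passed limma's test (adjusted p = 0.011), and it was lower on 4 of 4 arrays. Without sh-S1 the value was -0.58, short of 2-fold. The spots of one array agreed to within an SD of 0.12 to 0.41 in SKOV3, after 3 spots on an array of sh-S1 and 1 on an array of sh-S2 had been left out as outliers. In A2780s the same probe gave 1.70 and 2.34, a mean of 2.02 or 4.06-fold, with an SD over spots of 0.07 and 0.08. The second CEBPB probe (A_23_P143242, hg19 chr20:48807913-48807972) showed neither change. It was above background on every array and gave 0.02 ± 0.01 in SKOV3 (SD, n = 2 clones; adjusted p = 0.924, limma) and 0.10 and 0.34 in A2780s. On the SKOV3 arrays, however, the Cy5 signal of this second probe was low. Above background it was 17.6 in sh-S1, 32.1 in sh-S2, and 35.9 and 51.8 in the Ctrl. Its SKOV3 ratios thus depend on the background offset, and a change there could be understated. The call in SKOV3 is lost when the probes are averaged, at -0.56.

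ATF3 and DDIT3 are induced by ATF4 and act downstream of it, ATF3 as a stress-induced bZIP factor and CHOP as the factor linked to cell death under prolonged stress. They ranked 3 and 4 of the 30530 probes covered in A2780s. ATF3 (A_23_P34915, hg19 chr1:212793856-212793915) gave 3.24 and 3.16, a mean of 3.20 or 9.19-fold. Its second probe (A_24_P33895, hg19 chr1:212792837-212792896) gave 2.42 and 2.59. DDIT3 (A_23_P21134, hg19 chr12:57911200-57911526) gave 3.01 and 2.81, a mean of 2.91 or 7.53-fold. For both genes the arrays differed far less from each other than from 0.

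In SKOV3, ATF3 followed the dye, at 0.33 and -0.88 in sh-S1 and at 0.86 and -0.33 in sh-S2. Its mean was -0.01 ± 0.38 (SD, n = 2 clones; adjusted p = 0.982, limma). The second ATF3 probe was not well above background in any SKOV3 RNA and was not tested. DDIT3 separated the clones instead. It stood at -0.20 and 0.01 in sh-S1 and at 1.20 and 1.77 in sh-S2, and the mean of 0.70 ± 1.11 (SD, n = 2 clones) did not pass (adjusted p = 0.156, limma). The array with sh-S1 in Cy5 did not read DDIT3 well above background in that clone.

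PPP1R15A and TRIB3 feed back on the response. PPP1R15A, also called GADD34, directs the removal of the phosphate from eIF2, and TRIB3 is a pseudokinase that restrains ATF4 and CHOP. PPP1R15A (A_23_P90172, hg19 chr19:49378127-49378901) gave 1.07 and 0.76 in A2780s. In SKOV3 its values ran from -0.22 to -0.01 over the 4 arrays, with a mean of -0.11 ± 0.07 (SD, n = 2 clones; adjusted p = 0.434, limma), and 1 of the 2 arrays of sh-S1 did not read it well above background in that clone. TRIB3 moved more than PPP1R15A in each comparison. Its brightest probe (A_23_P210690, hg19 chr20:378107-378166) gave 1.78 and 2.81 in A2780s, a mean of 2.29 or 4.90-fold, and the second probe (A_24_P305541, hg19 chr20:376856-376915) gave 2.02 and 1.93. In SKOV3 the brightest probe was at -1.59 and -2.23 in sh-S1 and at 0.43 and 0.32 in sh-S2. TRIB3 was thus lower on both arrays of one clone and higher on both of the other, as were 1.86% of the probes tested, and the mean of -0.77 ± 1.62 (SD, n = 2 clones; adjusted p = 0.266, limma) describes neither. The second TRIB3 probe lay between -0.05 and 0.16 on these arrays and was too dim there to be tested.

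CHAC1, DDIT4 and SESN2 are effectors. CHAC1 breaks down glutathione, and DDIT4, also called REDD1, and SESN2 restrain the growth kinase complex mTORC1. CHAC1 (A_23_P14863, hg19 chr15:41248522-41248581) gave 2.43 and 2.18 in A2780s, a mean of 2.31 or 4.95-fold. In SKOV3 it followed the dye more than any other of the 10 genes by its brightest probe, at 0.41 and -1.48 in sh-S1 and at 1.37 and -0.64 in sh-S2, and its mean of -0.08 ± 0.63 (SD, n = 2 clones; adjusted p = 0.809, limma) lies between arrays of opposite sign.

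DDIT4 and SESN2 were higher on all 6 arrays. DDIT4 (A_23_P104318, hg19 chr10:74035363-74035422) stood at 0.75 and 0.33 in sh-S1, at 1.77 and 1.50 in sh-S2 and at 1.43 and 1.14 in pCMV-Hic-5. Its SKOV3 mean of 1.09 ± 0.78 (SD, n = 2 clones) had an SE of 0.23 and passed limma's test (adjusted p = 0.0125). Without sh-S2 the value was 0.54, and with arrays centred on the median in place of loess the mean was 0.91, both short of 2-fold. SESN2 (A_23_P35082, hg19 chr1:28608194-28608253) stood at 0.48 and 1.12 in sh-S1, at 0.69 and 0.76 in sh-S2 and at 0.95 and 0.57 in pCMV-Hic-5. Its SKOV3 mean was 0.76 ± 0.05 (SD, n = 2 clones; adjusted p = 0.00125, limma), or 1.70-fold, and the A2780s mean was 0.76 as well. On the processed signals of Feature Extraction these means were 1.34 and 0.80, so their likeness depended on the processing. Of the 23729 probes measured in both lines, 7.79% were higher on all 6 arrays.

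The clones sh-S1 and sh-S2 were also set against each other through the Ctrl they share, within each dye orientation. A dye bias that is equal on both arrays falls out of that difference. The median Cy5 signal above background was 9.52 on the sh-S1 array and 14.2 on the sh-S2 array with the clones in Cy5. With the clones in Cy3 it was 18.0 and 25.5, and whether the bias was equal was not tested. The comparison has 1 RNA a clone and no test. In 6 of the 10 genes the brightest probe was at least 1.5-fold higher in sh-S2 with the same sign in both orientations, which 1.32% of the 24956 probes tested and 1.51% of genes were, and no gene was lower by that rule, which 1.74% of probes were. The rule was applied to the clones after their values had been seen. TRIB3 differed most, by 2.03 with the clones in Cy5 and 2.55 with the clones in Cy3, a mean of 2.29 or 4.88-fold. DDIT3 differed by 1.76 with the clones in Cy3. With the clones in Cy5 its difference was 1.39, a value that depends on the background offset, since sh-S1 was not well above background there. The value of 1.76 depends on the offset too, since the Ctrl in Cy5 on those arrays read only 13.3 and 21.0 above background. CEBPB, at 0.94 and 1.28, and DDIT4, at 1.02 and 1.17, both passed 2-fold on average, but the second CEBPB probe gave 0.10 and -0.07. That second probe was dim in Cy5 on the SKOV3 arrays, so its differences also depend on the background offset.

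CHAC1, which had followed the dye over the Ctrl, differed between the clones by 0.95 and 0.84, almost alike in the orientations. ATF4 did so by 1.00 and 0.79 with its brightest probe and by 0.15 and 0.56 with its other probe. ATF3 was close to the threshold, at 0.52 and 0.55. PPP1R15A, SESN2 and ATF5 had means of 0.10, -0.08 and -0.08, with the orientations on opposite sides of 0 in PPP1R15A and SESN2. The Cy5 signals of PPP1R15A and ATF5 lay below the background offset, so their differences depend on it. The median over the 10 genes was 0.90, beside -0.01 over all probes tested.

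**Figure D3:**
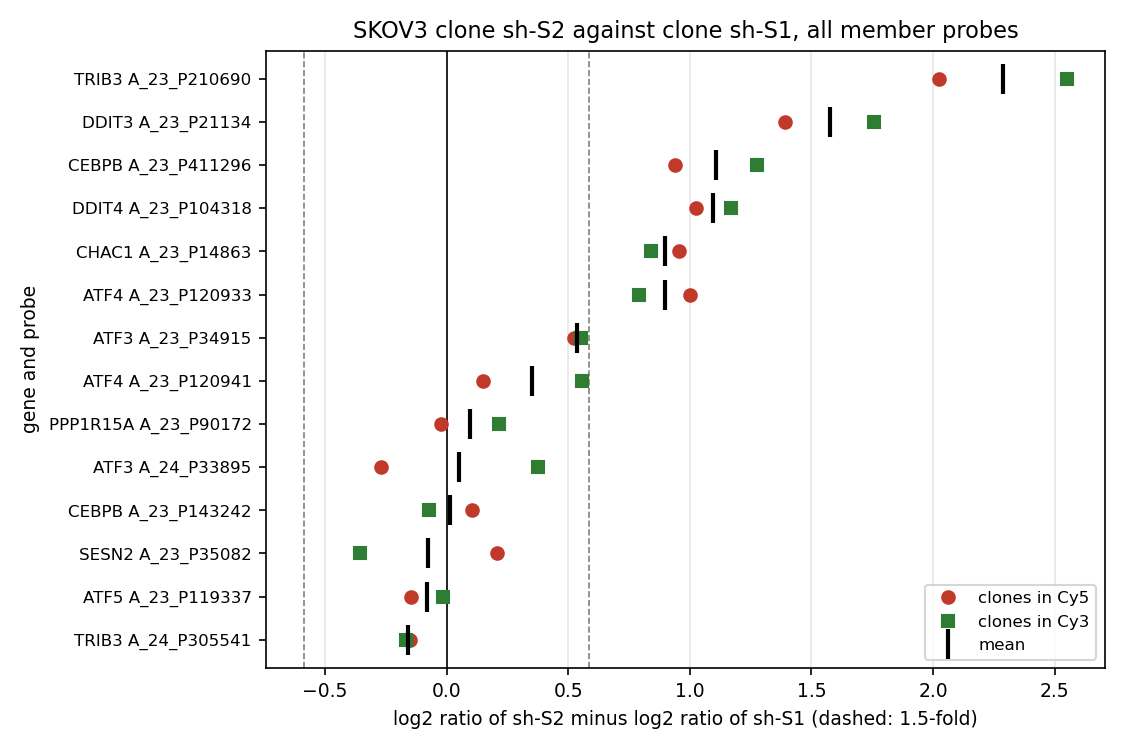
Log2 ratio of sh-S2 minus log2 ratio of sh-S1 (horizontal axis) for each of the 14 probes, with the arrays that hold the clones in Cy5 as circles, those that hold them in Cy3 as squares, the mean as a bar and 1.5-fold as dashed lines. The top 6 probes, from TRIB3 at 2.29 to ATF4 at 0.90, lie past the dashed line in both orientations.

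Levels in each of the 5 RNAs were read from the single channels, on a log2 scale of normalized intensity that is set between RNAs for a probe but not between probes. Between SKOV3 and A2780s RNAs a difference in level cannot be told apart from one between the slides. The A2780s pCMV-Hic-5 RNA had the highest mean level of the 5 RNAs for all 10 genes by their brightest probe. For DDIT3 the mean level was 7.61 in sh-S1, 7.99 in the SKOV3 Ctrl, 9.36 in the A2780s Ctrl, 9.76 in sh-S2 and 12.3 in pCMV-Hic-5. The arrays of sh-S1 (7.52 and 7.71) overlapped those of the SKOV3 Ctrl (7.70 to 8.56), and those of sh-S2 (9.19 and 10.3) overlapped those of the A2780s Ctrl (9.28 and 9.44). A gap thus separated these pairs of RNAs from each other and from pCMV-Hic-5 (12.3 on both arrays).

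TRIB3 was lowest in sh-S1, at 9.58, followed by the SKOV3 Ctrl at 11.6, the A2780s Ctrl at 12.0, sh-S2 at 12.1 and pCMV-Hic-5 at 14.3. The arrays of the A2780s Ctrl overlapped those of the SKOV3 Ctrl and of sh-S2, and no other neighbours in this order overlapped. For ATF4 the SKOV3 Ctrl (14.9), the A2780s Ctrl (14.9) and sh-S1 (15.0) overlapped over their arrays, and sh-S2 (15.9) stood between them and pCMV-Hic-5 (16.4). CEBPB ran from 10.4 in sh-S1 through 11.2 in the A2780s Ctrl, 11.5 in sh-S2 and 12.1 in the SKOV3 Ctrl to 13.2 in pCMV-Hic-5, with no overlap between any of the RNAs. It was the gene with the largest excess of the SKOV3 Ctrl over the A2780s Ctrl among the 10, by 0.95.

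DDIT4 had the largest difference in the other direction by this processing. Its mean level was 11.6 in the SKOV3 Ctrl, 12.0 in sh-S1, 13.4 in the A2780s Ctrl, 13.5 in sh-S2 and 14.7 in pCMV-Hic-5, so that the SKOV3 Ctrl lay 1.76 below the A2780s Ctrl while sh-S2 lay 0.06 above it. The arrays of sh-S1 overlapped those of the SKOV3 Ctrl, and the arrays of sh-S2 those of the A2780s Ctrl. SESN2 and DDIT3 were also lower in the SKOV3 Ctrl, with differences to the A2780s Ctrl of -1.34 and -1.37. With per-channel quantile normalization in place of loess and Aquantile, the differences were -1.84 in DDIT4, -1.88 in DDIT3 and -1.63 in SESN2. DDIT3 then had the largest, and CEBPB kept the largest excess of the SKOV3 Ctrl, at 0.75. Of the other 5 genes that separated the clones, the sh-S2 levels of TRIB3, CEBPB and DDIT3 lay 0.14, 0.35 and 0.40 above the A2780s Ctrl, and those of ATF4 and CHAC1 lay further above it, by 1.03 and 1.16. Over the 23729 probes measured in both lines, which share arrays and base composition and are no replicates, the levels of sh-S2 correlated with a Pearson's r of 0.942 with the SKOV3 Ctrl and 0.951 with the A2780s Ctrl, and those of sh-S1 with 0.947 and 0.941. The median absolute difference in log2 level went the other way for sh-S2, at 0.22 to the SKOV3 Ctrl and 0.34 to the A2780s Ctrl, and for sh-S1 it was 0.20 and 0.37. The part of these likenesses in the differences between the clones was not tested.

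In the remaining 5 genes too, the arrays of pCMV-Hic-5 lay above those of all other RNAs. ATF3 ran from 8.57 in sh-S1 through 9.08 in the SKOV3 Ctrl, 9.33 in the A2780s Ctrl and 9.57 in sh-S2 to 12.5 in pCMV-Hic-5, where the arrays of the SKOV3 Ctrl, from 8.66 to 9.95, overlapped those of each of the other 3 RNAs below pCMV-Hic-5. CHAC1 ran from 10.74 in the A2780s Ctrl through 11.09 in sh-S1, 11.58 in the SKOV3 Ctrl and 11.90 in sh-S2 to 13.05 in pCMV-Hic-5. Its SKOV3 Ctrl spread from 10.98 to 12.26 over 4 arrays of 1 RNA, and that range took in arrays of both clones. PPP1R15A lay between 7.93 and 8.10 in all RNAs other than pCMV-Hic-5, where it was 9.02.

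ATF5 was at 7.62 in the A2780s Ctrl, 7.79 in sh-S2, 8.10 in sh-S1, 8.24 in the SKOV3 Ctrl and 9.33 in pCMV-Hic-5, with overlap between each of the neighbours below pCMV-Hic-5. SESN2 was at 8.75 in the SKOV3 Ctrl, 9.46 in sh-S2, 9.56 in sh-S1, 10.1 in the A2780s Ctrl and 10.8 in pCMV-Hic-5. Its SKOV3 Ctrl lay below all arrays of the other RNAs, the arrays of sh-S1 overlapped those of sh-S2 and of the A2780s Ctrl, and pCMV-Hic-5 lay above all others.

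**Figure D4:**
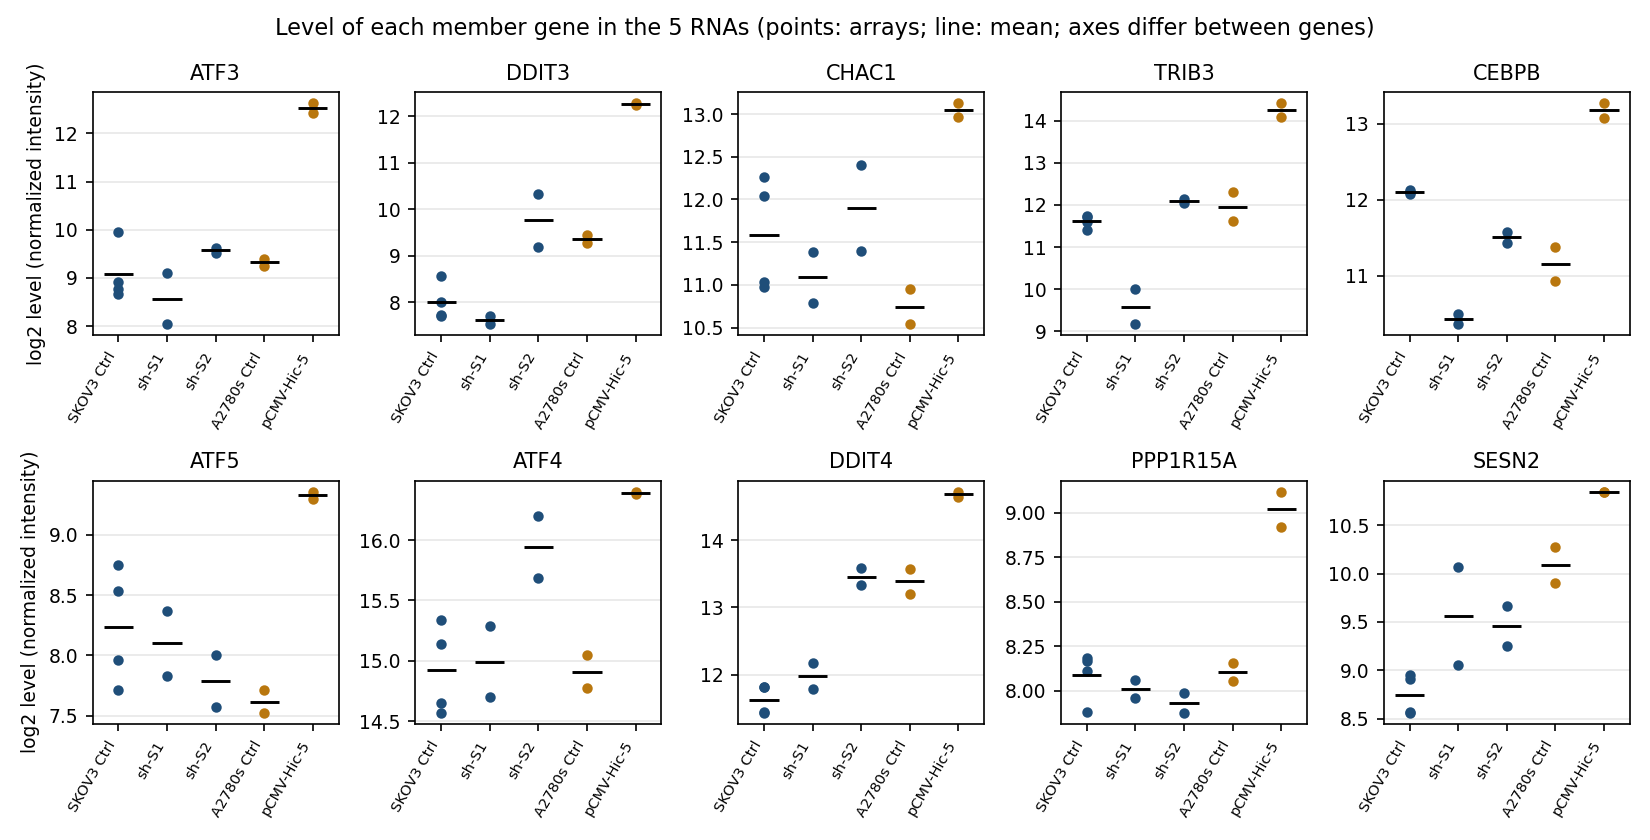
Log2 level of normalized intensity (vertical axis, which differs between panels) of the brightest probe of each of the 10 genes in the 5 RNAs, with 1 point an array and a line at the mean, SKOV3 RNAs in blue and A2780s RNAs in orange. The pCMV-Hic-5 RNA is highest in every panel, and sh-S1 is lower than sh-S2 on all arrays for DDIT3, TRIB3, CEBPB, ATF4, DDIT4, ATF3 and CHAC1.

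Among genes upstream of ATF4, 2 passed in A2780s and 1 in SKOV3. The list held 18 genes for the eIF2 kinases, the subunits of eIF2 and of its exchange factor eIF2B, and proteins that inhibit the kinases or act on phosphorylated eIF2. Of these, 2 (11.1%) passed the fold rule in A2780s, both higher, where 3.43% of all genes did, with a list median of 0.18. They were DNAJC3, an inhibitor of the eIF2 kinases, at 1.35, and EIF2AK3, the kinase PERK that senses the endoplasmic reticulum, at 1.17. In SKOV3, EIF2AK4, the kinase GCN2 that senses a lack of amino acids, was called lower at -1.07 ± 0.10 (SD, n = 2 clones; adjusted p = 0.000326, limma), and no other gene of the list was called, a share of 5.56% where 4.51% of all genes were called lower.

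Among 20 other bZIP factors and partners of the ATF and C/EBP families, 5 of 19 covered (26.3%) passed in A2780s, all higher, where 3.43% of all genes did, led by CEBPE at 1.54, XBP1 at 1.26 and NFIL3 at 1.06. XBP1 is the factor made by splicing in the IRE1 arm of the unfolded protein response. In SKOV3, 2 of 19 tested (10.5%) were called lower, where 4.51% of all genes were, and none higher. CEBPD, an inflammatory C/EBP factor, was at -1.82 ± 0.16 (SD, n = 2 clones; adjusted p = 4.36e-05, limma). NFIL3, a repressor of the bZIP family, was at -1.11 ± 0.05 (SD, n = 2 clones; adjusted p = 0.000243, limma).

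Many textbook targets of ATF4 or CHOP were higher in A2780s beside the 10 genes. Of 42 such genes 41 were covered, and 28 (68.3%) passed the fold rule, all of them higher, with a median of 0.87 beside -0.01 for all genes. HERPUD1, a component of protein degradation at the endoplasmic reticulum, was at 3.29, while its other probe gave 0.20. SLC7A11, the cystine transporter, was at 2.65, with its other probes at 1.38 and 1.34, and GDF15, a secreted stress cytokine, at 2.02. In SKOV3, 37 were tested, and 7 (18.9%) were called higher and 4 (10.8%) lower, where 3.45% and 4.51% of all genes were. The higher ones were led by PCK2, a mitochondrial enzyme of gluconeogenesis, at 2.24, PHGDH, the first enzyme of serine synthesis, at 1.92 and SESN3, a relative of SESN2, at 1.66. The lower ones were led by SLC7A11 at -2.42 ± 0.16 (SD, n = 2 clones; adjusted p = 1.35e-05, limma), and then came GADD45A, a cell-cycle arrest gene, at -1.09 and SLC7A5, a transporter of large amino acids, at -1.08. The other probes of these genes gave smaller ratios in SKOV3, 0.61 for PCK2, 0.16 for SESN3 by its other tested probe, -0.64 and -1.57 for SLC7A11 and -0.32 for SLC7A5. In A2780s the other SLC7A5 probe gave 0.24, short of 1.5-fold. By their brightest probes PCK2, PHGDH, GDF15, ASNS and BBC3 were past the rules upward in both lines, while SLC7A11, SLC7A5 and SLC3A2 were called lower in SKOV3 and passed higher in A2780s. ASNS, BBC3 and SLC3A2 were named after their values were seen, to complete both groups.

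**Figure D5:**
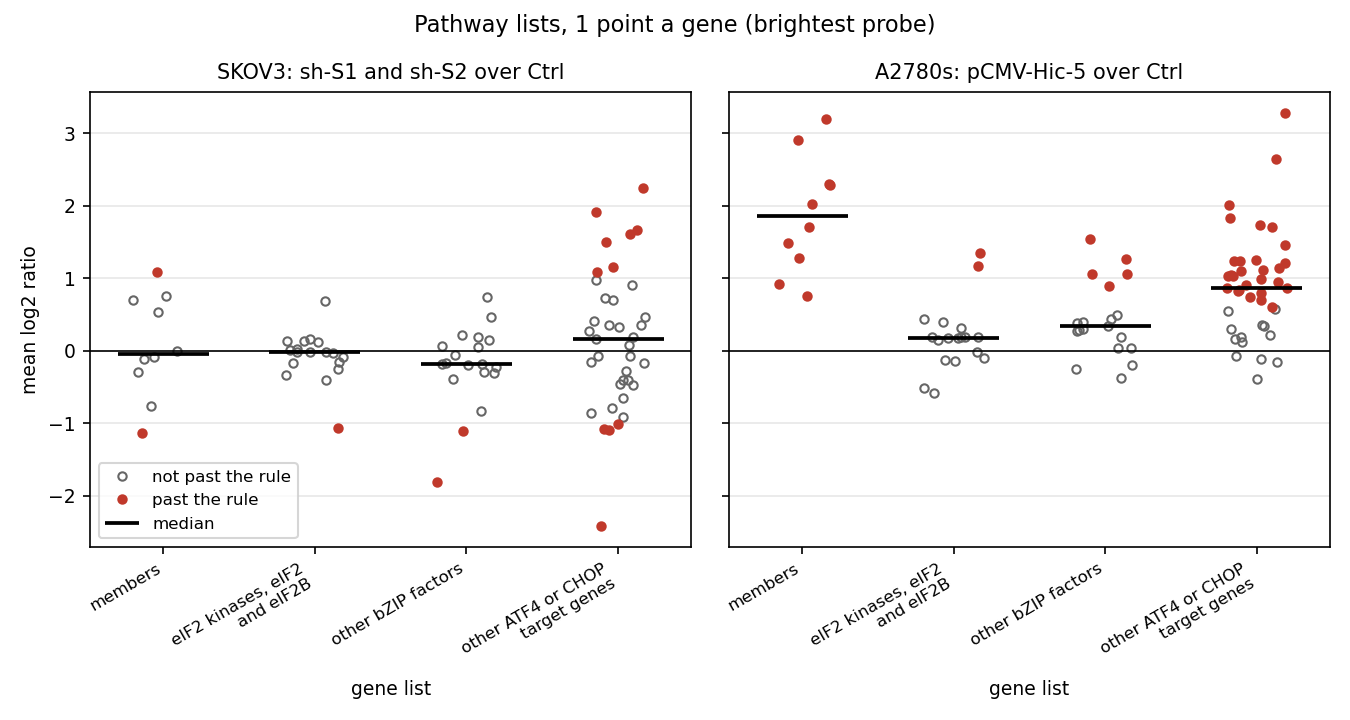
Mean log2 ratio (vertical axis) of the brightest probe of each gene in 4 lists, in SKOV3 on the left and A2780s on the right, with genes past the rule of that comparison as filled red points, the others as open points and the list median as a line. In A2780s the medians are 1.87 for the 10 genes, 0.18, 0.35 and 0.87, and no gene of these lists passed the rule downward.

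The genes whose 6 array ratios were nearest to those of ATF4 or DDIT3, by Euclidean distance among 17938 genes, were listed as a description. DERL3 was nearest to ATF4, at 0.77, followed by MANF at 0.86, and both act in the endoplasmic reticulum. In SKOV3 both read higher with the clone in Cy5, as the brightest ATF4 probe did, while the other ATF4 probe did the reverse. The part of the dye in these distances was not tested. The transcript listed as ENST00000433309 came next, at 0.94. Nearest to DDIT3 were IL21R at 1.59, TEX19 at 2.02 and BEX2 at 2.16.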

How the data were processed

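Per the labels, RNAs of SKOV3 and A2780s clones were labelled and hybridised in pairs with dye swaps on Agilent arrays (design Agilent-014850). The authors deposited the spot intensity of both dyes from each scan, with the log10 ratio of Cy5 over Cy3 that Feature Extraction computed from its processed signals, and a series table that repeats this log10 ratio without turning the dye swaps. The submitters' processing notes name Agilent Feature Extraction 8.5.1.1, the headers of the scanner files 10.7.3.1, with probe positions on hg19. The study's own background correction and test are not given in the sources used here.

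From the mean intensity and the median background, normexp correction (offset 50) was computed. Its parameters were fitted without spots marked as background outliers, spots with a local background over 1000 were left out, and control spots were given no weight. Ratios were normalized by loess within each array with limma 3.58.1 in R 4.3.3, expressed as log2 of clone over Ctrl and averaged over spots, then over the dye swap. Single-channel levels came from loess followed by Aquantile. In SKOV3, limma tested the mean of the clones against 0 over 24956 probes, those read well above background on all 4 arrays in the Ctrl or on both arrays of at least 1 clone, with Benjamini-Hochberg adjustment. No Ctrl was hybridised against another, so the spread of the Ctrl is left out. A2780s had the fold rule and no test. Precision is limited by how few arrays there are. The brightest probe over the 6 arrays stood for a gene. Named beside the 10 genes are TGFB1I1, the 3 highest and 3 lowest genes of each list past the rule, the 3 genes nearest to ATF4 and to DDIT3, and cell type markers. The genes and lists were chosen with earlier results of these data known. The script was tested on simulated data. Alternatives covered the background correction, the normalization, the probe, the dye, the filter and the clones. Exon and untranslated positions of the probes were not analysed here.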

Additional observations from a re-analysis of the deposited data

Results flagged for a closer look

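By its brightest probe, TRIB3 was lower on both arrays of the RNA labelled sh-S1 and higher on both arrays of the RNA labelled sh-S2. The difference in log2 ratio was 2.29, and the second TRIB3 probe, too dim to be tested, did not show it. Of all probes tested in SKOV3, 1.86% were lower on both arrays of sh-S1 and higher on both of sh-S2. The difference has 1 RNA a clone and was not tested.

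By their brightest probes, 3 of the 10 genes were lower on all 4 SKOV3 arrays and higher on both A2780s arrays, as were 6.05% of the probes measured in both lines. The A2780s mean exceeded the SKOV3 mean by 3.15 in CEBPB, by 2.00 in ATF5 and by 1.03 in PPP1R15A on the log2 scale. These differences were not tested, and cell line, slide and manipulation cannot be told apart. In ATF5 and PPP1R15A the SKOV3 means of -0.29 and -0.11 did not pass the test. Their Cy5 signals on the SKOV3 arrays lay below the background offset, so a change there could be understated.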

How the results depend on the processing

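In A2780s, 8 to 10 of the 10 genes passed the rule upward under every alternative run, 9 with the clone in Cy3 alone or with 1.5-fold asked on each array and 8 at 2-fold, and none passed downward. The last 2 of these settings and the 1.5-fold setting in SKOV3 were chosen after seeing the data. No single A2780s ratio changed sign. Over all probes the count passing upward was 994, and 668 with normexp fitted on all spots, 1795 with the clone in Cy5 alone and 1019 with it in Cy3 alone. The counts passing downward were 403, 293, 1516 and 210. Among the lists, 1 gene passed downward on the processed signals of Feature Extraction, in place of 0.

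In SKOV3 the calls depended on the processing. The count of the 10 genes called higher was 1, and it was 2 on the processed signals, 2 with the clones in Cy5 alone, 2 at 1.5-fold, 0 with median centring and 0 with the clones in Cy3 alone. The count called lower was 1, and it was 2 on the processed signals, 2 with the clones in Cy3 alone and 0 with the mean over the probes of a gene. Leaving out a clone, which leaves a value with no test, gave 0 to 2 past 2-fold in each direction: without sh-S1, 2 higher and 0 lower, and without sh-S2, 0 higher and 2 lower. The sign turned in ATF4 with the clones in Cy3 (-0.051), in ATF3 on the processed signals (0.073) and in Cy5 (0.60), and in CHAC1 on the processed signals (0.11) and in Cy5 (0.89). It also turned with a clone left out, in DDIT3 without sh-S2 (-0.09) and without sh-S1 in TRIB3 (0.37), ATF3 (0.26) and CHAC1 (0.36). On the processed signals 11 genes of the lists were called lower in place of 7, ATF5 (-1.10) and SESN2 (1.34) passed, and over all probes 1963 were higher and 2353 lower in place of 743 and 1038. Median centring gave 1578 lower. The cause was not tested. The dim Cy5 channel of the SKOV3 arrays limits what could be read there. No paired analysis was possible because the labels number no replicates across groups and each ratio is already taken within an array.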
